A study of Mus musculus with 6 samples.

Results

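The miR-200 family (miR-200a, miR-200b, miR-200c, miR-141 and miR-429), together with miR-203 and miR-205, was followed through aortas of atherosclerotic mice with and without a Dicer deletion. Members were chosen by assay name, without star strands, and all 7 were present among the 517 microRNA assays of the array. In the Dicer_KO group (3 aortas), the mice carried LysM-Cre, 2 floxed Dicer alleles (Dicer flox/flox) and Apoe-/-. In the Dicer_WT group (3 aortas), littermates carried LysM-Cre, wild-type Dicer (Dicer wt/wt) and Apoe-/-. All 6 mice were male, were 6 to 8 weeks old when feeding started and received a diet with 21% crude fat for 12 weeks. Cre and loss of Apoe, the apolipoprotein E gene whose absence raises blood cholesterol, were thus common to both groups. Lysozyme M, the gene that drives Cre here, is active in macrophages, monocytes and neutrophils. Dicer, which cuts microRNA precursors, was therefore targeted in only some cells of the vessel, and its own mRNA was not measured.

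MicroRNAs of the miR-200 family are abundant in epithelia, where they restrain the transcription factors ZEB1 and ZEB2 and so help to keep E-cadherin and the epithelial state. miR-203 restrains p63 and is known for promoting differentiation of the epidermis, and miR-205 is abundant in stratified epithelia such as skin and breast. A vessel wall consists mainly of smooth muscle, endothelium, fibroblasts and infiltrating leukocytes, so these microRNAs are not typical products of its main cells.

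The mature sequences (RefSeq, GRCm38.p6) are shown because they sort the 7 members into 4 seeds. Capitals mark the seed, bases 2 to 8 from the 5′ end, which pairs with target mRNAs. The older assay names carry no arm, and each was matched to the arm known as the guide strand.
miR-200b-3p: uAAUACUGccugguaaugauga
miR-200c-3p: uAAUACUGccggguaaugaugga
miR-429-3p: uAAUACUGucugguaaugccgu
miR-200a-3p: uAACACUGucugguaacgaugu
miR-141-3p: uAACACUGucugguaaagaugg
miR-203-3p: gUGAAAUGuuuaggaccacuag
miR-205-5p: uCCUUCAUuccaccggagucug
miR-200b, miR-200c and miR-429 share 1 seed, and miR-200a and miR-141 share another, which differs from it by the single substitution U4C (miR-200b base, position from the 5′ end, miR-200a base). Among 1738 mature mouse microRNAs in the RefSeq table, no further one had either seed. miR-200b and miR-429 are identical at 18 of 22 positions and differ at C9U, A19C, U20C and A22U, all outside the seed. miR-200b and miR-200c differ at 2 of 22 aligned positions (U11G and A22G), as do miR-200a and miR-141 (C17A and U22G).

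The 7 genes lie at 4 loci. Mir200b, Mir200a and Mir429 stand within 1846 bases on the minus strand of chromosome 4, at chr4:156053905-156055750. Mir200c and Mir141 stand within 477 bases on the minus strand of chromosome 6, at chr6:124717914-124718390. Mir203 lies on the plus strand at chr12:112130880-112130955 and Mir205 on the minus strand at chr1:193507463-193507530.

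Each aorta was read once per assay by TaqMan PCR after preamplification, as a threshold cycle (Ct), in which a lower Ct means more RNA and 40 means no product. Below Ct 35, taken as detected, 349 to 366 assays lay in the Dicer_KO aortas and 374 to 378 in the Dicer_WT aortas. The labels give aorta as the tissue but macrophage as the cell type. The lowest mean Ct in Dicer_WT aortas among 330 assays detected in all 6 was that of the smooth muscle microRNA miR-145, at 12.44 ± 0.465 in Dicer_KO and 11.80 ± 0.237 in Dicer_WT aortas (SD, n = 3 each). The macrophage microRNA miR-511 stood at rank 213, with a Ct of 28.55 ± 0.518 in Dicer_KO and 26.33 ± 0.299 in Dicer_WT aortas. The myeloid miR-223 stood at rank 44, with a Ct of 21.52 ± 0.433 in Dicer_KO and 19.63 ± 0.468 in Dicer_WT aortas. Such ranks mix level with the efficiency of each assay, and the values were read as those of a whole vessel. In such bulk RNA, fewer cells of a type and less RNA per cell cannot be told apart. The labels call the replicates biological, and each aorta was taken as 1 mouse.

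All 7 members were detected in all 6 aortas. The earliest to cross threshold was miR-203, with a Ct of 22.28 ± 0.356 in Dicer_KO and 22.34 ± 0.360 in Dicer_WT aortas (SD, n = 3 each), rank 101 of 330 in Dicer_WT aortas. miR-429 followed at 26.75 ± 0.368 in Dicer_KO and 25.69 ± 0.422 in Dicer_WT aortas. miR-200a was at 26.13 ± 0.252 in Dicer_KO and 25.83 ± 0.483 in Dicer_WT aortas, and miR-200b at 26.57 ± 0.430 in Dicer_KO and 26.17 ± 0.768 in Dicer_WT aortas. These and miR-200c, at 27.07 ± 0.536 in Dicer_KO and 26.38 ± 1.53 in Dicer_WT aortas, held ranks 191 to 215 and were not separated beyond their spread in Dicer_WT aortas. In Dicer_KO aortas miR-200a came first of these 4, and its range (25.93 to 26.41) lay below that of miR-200c (26.59 to 27.65). The latest were miR-205, at 30.03 ± 1.01 in Dicer_KO and 30.67 ± 2.05 in Dicer_WT aortas, and miR-141, at 31.37 ± 0.967 in Dicer_KO and 30.88 ± 0.503 in Dicer_WT aortas. Their ranks were 313 and 315, and the ranges of these 2 overlapped in both groups. The efficiency of each assay was not measured, so a gap in Ct between assays mixes level with efficiency, and the order is a description of these assays.

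**Figure D1:**
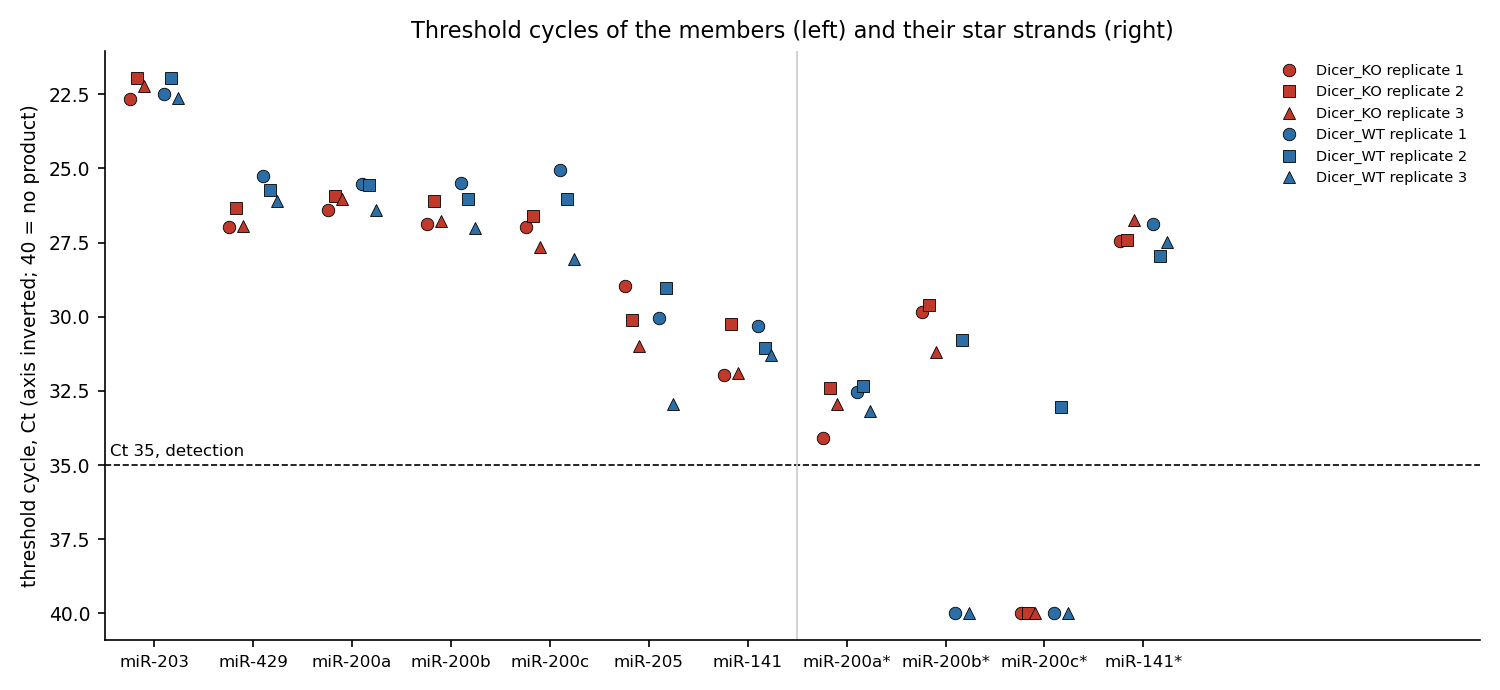
Threshold cycle (inverted axis) of the 7 members and of the 4 star strands on the array, in each Dicer_KO (red) and Dicer_WT (blue) aorta, with Ct 35 as a dashed line. miR-203 crosses at about 22 in every aorta, miR-141 and miR-205 at 28.98 or later, and miR-200b* and miR-200c* have wells at 40.

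The comparison of Dicer_KO with Dicer_WT aortas asked whether these microRNAs change in the vessel when Dicer is deleted by LysM-Cre. No member passed the test: 0 of 7 were called, where 1.86% of the 377 assays tested were called (limma on log2 relative quantity, adjusted p under 0.05 over all assays tested). At an unadjusted p under 0.05 the count was 1 of 7, miR-429, against 26.8% of all assays. Of the 7 log2 fold changes, 5 were below 0, against 78.2% of all assays. Their median was -0.18, beside -0.42 over all assays tested, which shows that most assays lay below 0 on this scale. Relative quantities below are linear ratios deposited by the authors, normalized to reference RNAs of each aorta, with 1 as the geometric mean of the Dicer_WT group.

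Within the chromosome 4 cluster, the groups parted on this scale for miR-429 alone. Its relative quantity was 0.423, 0.809 and 0.507 in the Dicer_KO aortas, against 1.18, 1.03 and 0.826 in the Dicer_WT aortas. Every Dicer_KO value lay below every Dicer_WT value, although Dicer_KO replicate 2 and Dicer_WT replicate 3 nearly met. Such a gap below the Dicer_WT group was seen for 1 of 7 members, and 32.6% of all assays had it. A gap above it was seen for 0 of 7 members and 2.39% of all assays. The log2 fold change was -0.84 ± 0.301 (SE, n = 3 each, 95% interval -1.58 to -0.10), with an adjusted p of 0.148 (limma). It was therefore not called. The separation depended on the reference RNAs. With each aorta's median over the 330 assays detected in all 6 subtracted instead, the groups overlapped. The log2 values of miR-429 were then -1.03, 0.066 and -0.41 in Dicer_KO, against 0.14, -0.042 and -0.11 in Dicer_WT aortas.

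miR-200b, which shares the seed of miR-429, had relative quantities of 0.632, 1.34 and 0.811 in Dicer_KO aortas, against 1.40, 1.16 and 0.615 in Dicer_WT aortas. The groups overlapped fully, with replicate 2 highest among Dicer_KO and replicate 3 lowest among Dicer_WT aortas. The log2 fold change was -0.18 ± 0.424 (SE, 95% interval -1.22 to 0.86, limma adjusted p = 0.754), and it was above 0 without Dicer_KO replicate 1 (0.060) or Dicer_WT replicate 1 (0.062). miR-200a, with the other seed, had 0.691, 1.18 and 1.05 in Dicer_KO aortas, against 1.06, 1.27 and 0.740 in Dicer_WT aortas. It showed the same order of aortas within each group except for the 2 highest Dicer_WT aortas, and the groups overlapped. At -0.07 ± 0.310 (SE, 95% interval -0.84 to 0.69, limma adjusted p = 0.854), its log2 fold change was the nearest to 0 of the 7, and it was above 0 without Dicer_KO replicate 1 (0.15) or Dicer_WT replicate 2 (0.099).

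In the chromosome 6 cluster, miR-200c had relative quantities of 0.683, 1.09 and 0.506 in Dicer_KO aortas, against 2.17, 1.34 and 0.342 in Dicer_WT aortas. Dicer_WT replicate 3 was the lowest of all 6 aortas and Dicer_WT replicate 1 the highest, so the Dicer_KO values fell inside the Dicer_WT range. The log2 fold change of -0.47 ± 0.727 (SE, 95% interval -2.26 to 1.32, limma adjusted p = 0.628) was -1.24 without Dicer_WT replicate 3 (adjusted p = 0.142) and 0.091 without Dicer_WT replicate 1 (adjusted p = 0.924). miR-141, processed from the neighbouring hairpin, had 0.483, 1.94 and 0.608 in Dicer_KO aortas, against 1.28, 0.950 and 0.823 in Dicer_WT aortas. Here Dicer_KO replicate 2 exceeded every Dicer_WT aorta while the other 2 Dicer_KO aortas lay below them all. The log2 fold change was -0.27 ± 0.556 (SE, 95% interval -1.64 to 1.10, limma adjusted p = 0.720). It was -0.88 without Dicer_KO replicate 2 (adjusted p = 0.197) and 0.12 without Dicer_KO replicate 1 (adjusted p = 0.867).

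The values of miR-203 and miR-205 were higher on average in Dicer_KO aortas, and neither passed the test. miR-203 had relative quantities of 0.829, 1.65 and 1.34 in Dicer_KO aortas, against 0.785, 1.41 and 0.904 in Dicer_WT aortas. The ranges overlapped, with a log2 fold change of 0.29 ± 0.353 (SE, 95% interval -0.58 to 1.16, limma adjusted p = 0.546). miR-205 had 3.34, 1.85 and 0.974 in Dicer_KO aortas, against 1.35, 3.33 and 0.223 in Dicer_WT aortas. The Dicer_WT aortas alone spanned a 15.0-fold range. Its log2 fold change of 0.86 ± 1.05 (SE, 95% interval -1.71 to 3.44, limma adjusted p = 0.545) turned to -0.22 without Dicer_WT replicate 3.

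**Figure D2:**
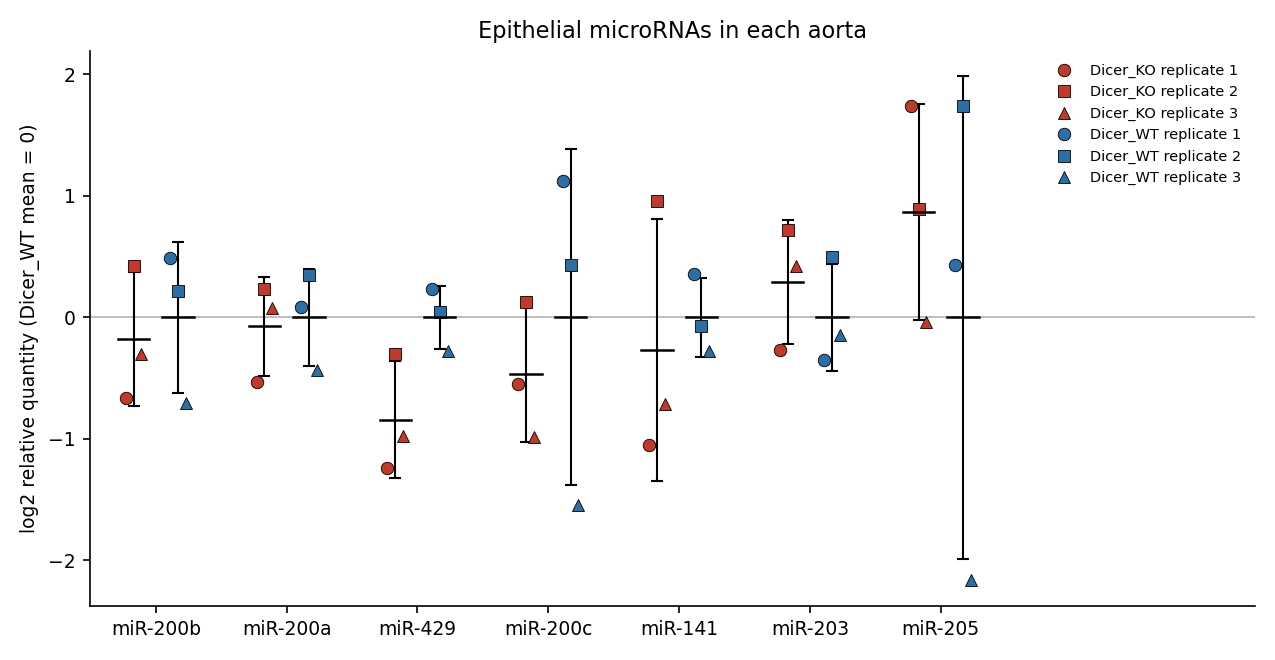
Log2 relative quantity of the 7 members in each aorta, Dicer_KO (red) left of Dicer_WT (blue), with replicates as circle, square and triangle, group means as horizontal lines and SD as bars. The groups part only for miR-429, and miR-200c and miR-205 have the widest spread in Dicer_WT aortas, with replicate 3 lowest.

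The members varied more between aortas of 1 group than most assays did. Each assay was read once per aorta, so this spread mixes mice with wells. The SD of log2 relative quantity exceeded the median of all 330 assays detected in all 6 aortas for 7 of 7 members in Dicer_KO aortas (median 0.329) and for 7 of 7 in Dicer_WT aortas (median 0.239). miR-205 had an SD of 0.889 in Dicer_KO and 1.99 in Dicer_WT aortas, and 99.1% of assays varied less in Dicer_WT aortas. miR-200c had 0.559 in Dicer_KO and 1.38 in Dicer_WT aortas, where 98.2% varied less. miR-141 was the most variable of the 7 in Dicer_KO aortas, at 1.08, against 0.325 in Dicer_WT aortas. miR-429 had 0.483 in Dicer_KO and 0.258 in Dicer_WT aortas, where only 54.5% of assays varied less. The assays compared were not matched for Ct, and miR-205 and miR-141 were among the latest of the 330. The median SE of the fold change was accordingly 0.424 for the members and 0.275 for all assays, so the intervals above leave room for changes of about 1 on the log2 scale in most members.

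The same aortas were high or low for several members. Dicer_KO replicate 2 was the highest Dicer_KO aorta for 6 of 7 members, all but miR-205, whereas it was the highest for 35.5% of the 330 assays. Dicer_WT replicate 3 was the lowest Dicer_WT aorta for 6 of 7 members, all but miR-203, beside 66.1% of assays. These members share the RNA, the card and the reference RNAs of an aorta and are not independent. In Dicer_WT replicate 3, markers of several cell types were also lowest among the Dicer_WT aortas: 4 of 5 for liver and gut, and 2 of 2 each for erythroid cells, smooth muscle, myeloid cells and all leukocytes. The counts were 0 of 4 each for neurons and for endocrine cells and pancreas, 0 of 2 for endothelium and 0 of 1 for lymphocytes. They were 2 of 5 for striated muscle and 1 of 2 for mesenchyme. On the epithelial list of 10 (the 7 members, miR-182, miR-183 and miR-96) the count was 6, all members. For miR-182, miR-183 and miR-96, Dicer_WT replicate 1 was lowest. Of the 11 other epithelial or endoderm-enriched microRNAs tested, which include these, 7 were lowest in Dicer_WT replicate 3. In that aorta, log2 relative quantities were -1.44 for the hepatocyte miR-122 and -1.12 for the red cell miR-451. The summed level of the liver and gut list, as log2 relative to the reference RNAs, ranged from -4.13 to -3.32 in Dicer_KO and from -5.40 to -3.88 in Dicer_WT aortas. That of the erythroid pair ranged from -2.99 to -2.45 in Dicer_KO and from -5.21 to -3.16 in Dicer_WT aortas. The part of other tissue or blood in the low values of miR-200c and miR-205 was not tested. In Dicer_KO replicate 2, markers of many cell types were highest among the Dicer_KO aortas: 5 of 5 for liver and gut, 4 of 4 for endocrine cells and pancreas, 2 of 2 each for endothelium, erythroid cells, myeloid cells and all leukocytes, and 1 of 1 for lymphocytes. The counts were 1 of 4 for neurons, 0 of 5 for striated muscle and 0 of 2 each for smooth muscle and mesenchyme. On the epithelial list the count was 6 of 10, all members, while miR-182, miR-183 and miR-96 were highest in Dicer_KO replicate 1. Of the 11 other epithelial or endoderm-enriched microRNAs, 4 were highest in Dicer_KO replicate 2. The summed level of the endocrine and pancreas list ranged from -8.59 to -6.77 in Dicer_KO and from -10.49 to -8.44 in Dicer_WT aortas. That of the endothelial pair ranged from 0.87 to 1.78 in Dicer_KO and from 1.12 to 1.41 in Dicer_WT aortas. Their part in the members' values was not tested either.

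Differences between microRNAs of the same aorta and card need no reference RNA, since it cancels. In each aorta, miR-429 was set against miR-200b of the same cluster. The difference was -0.10, -0.25 and -0.20 on the log2 scale in Dicer_KO aortas, against 0.23, 0.31 and 0.91 in Dicer_WT aortas. All 3 Dicer_KO aortas were below 0 and all 3 Dicer_WT aortas above it, so the groups did not overlap. The means were -0.18 ± 0.076 in Dicer_KO and 0.48 ± 0.371 in Dicer_WT aortas (SD, n = 3 each). They differed by -0.66 (two-sided exact permutation p = 0.1, the lowest possible with 3 against 3; adjusted p = 0.45 over 9 differences), and by -0.45 without Dicer_WT replicate 3. At this size the design cannot pass 0.05.

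The other differences between members of the same aorta overlapped between the groups. miR-200a minus miR-200b was 0.44 ± 0.285 in Dicer_KO and 0.34 ± 0.352 in Dicer_WT aortas (exact permutation p = 0.7, adjusted p = 0.9). miR-200c minus miR-200b, which sets the 2 clusters against each other, was -0.50 ± 0.397 in Dicer_KO and -0.21 ± 0.762 in Dicer_WT aortas (exact permutation p = 0.7, adjusted p = 0.9). miR-141 minus miR-200c was -4.30 ± 0.668 in Dicer_KO and -4.50 ± 1.10 in Dicer_WT aortas (exact permutation p = 0.8, adjusted p = 0.9), so miR-141 crossed threshold over 3 cycles later than its neighbour in every aorta. Between the unlinked miR-203 and miR-205 the difference was 7.75 ± 1.28 in Dicer_KO and 8.32 ± 1.77 in Dicer_WT aortas (exact permutation p = 0.7, adjusted p = 0.9).

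**Figure D3:**
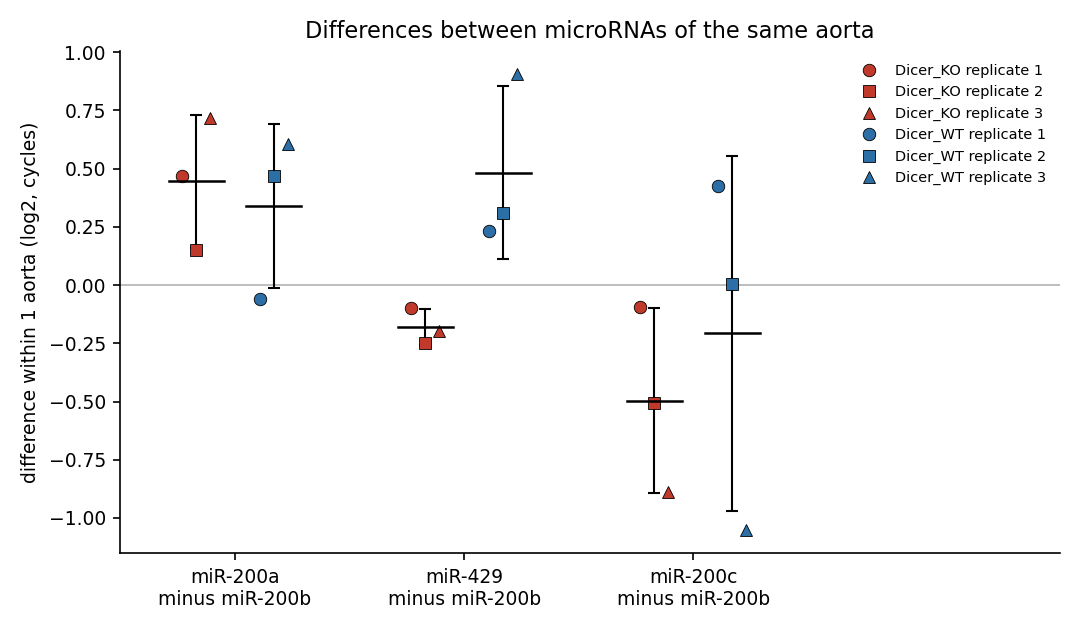
Differences on the log2 scale between pairs of miR-200 family members read in the same aorta, for Dicer_KO (red) and Dicer_WT (blue) aortas, with means as lines and SD as bars. Of the 3 pairs plotted, only miR-429 minus miR-200b separates the groups, with all 3 Dicer_KO aortas below 0 and all 3 Dicer_WT aortas above it.

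The array also held the star strands, the opposite arms of the hairpins, of 4 family members. Those of miR-200a and miR-200b are shown because they share a seed, in capitals, that differs from both seeds of the guide strands.
miR-200a-5p: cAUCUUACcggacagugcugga
miR-200b-5p: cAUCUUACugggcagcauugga
miR-200b* was detected in 3 of 3 Dicer_KO and 1 of 3 Dicer_WT aortas, with a Ct of 29.84, 29.61 and 31.18 in Dicer_KO aortas, against 40, 30.77 and 40 in Dicer_WT aortas. The detected wells of the groups overlapped in Ct, and the 2 silent Dicer_WT wells came from aortas whose miR-200b read 25.48 and 26.99. Its log2 fold change was 3.56 ± 1.25 (SE, limma adjusted p = 0.148), a value set by the level given to the silent wells, and it was not called. miR-200b minus miR-200b* was 3.85 ± 0.753 in Dicer_KO and 7.60 ± 2.40 in Dicer_WT aortas, with silent wells at Ct 35, and the groups did not overlap (exact permutation p = 0.1, adjusted p = 0.45). In the 1 Dicer_WT aorta with both strands detected it was 4.97, above the highest Dicer_KO value of 4.63.

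miR-200a* was detected in all 6 aortas at Ct 32.32 to 34.09. Its log2 fold change was -0.28 ± 0.513 (SE, limma adjusted p = 0.682), and miR-200a minus miR-200a* was 7.24 ± 0.558 in Dicer_KO and 7.03 ± 0.114 in Dicer_WT aortas (exact permutation p = 0.8, adjusted p = 0.9). miR-200c* gave product in Dicer_WT replicate 2 alone, at Ct 33.04, and was not tested by limma. miR-200c minus miR-200c* was counted among the 9 differences adjusted, with 5 silent miR-200c* wells set to the detection limit. In those aortas it sets miR-200c against a fixed Ct, so it cannot compare the strands between the groups. miR-141* crossed threshold before miR-141 in all 6 aortas, at a Ct of 27.20 ± 0.386 in Dicer_KO and 27.43 ± 0.537 in Dicer_WT aortas. miR-141 minus miR-141* was -3.96 ± 1.22 in Dicer_KO and -3.27 ± 0.411 in Dicer_WT aortas (exact permutation p = 0.5, adjusted p = 0.9). Guide and star assays were read on different cards, and their efficiencies were not measured.

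The authors' deposited fold changes give another summary of the same relative quantities. For 515 of 517 assays, and for all 7 members, the authors' deposited value equals the ratio of arithmetic means within a relative tolerance of 0.001. The authors' deposited table lists 0.573 for miR-429, beside 0.557 from geometric means. It lists 1.26 for miR-205, where geometric means give 1.82, and 0.994 for miR-141, where they give 0.829. For miR-200c, the authors' deposited value is 0.591, against 0.723. In the authors' deposited table miR-200b* stands at 5.41, with the silent wells taken as Ct 40. Both summaries lay closest for miR-200a (0.950 in the authors' deposited table and 0.949 from geometric means).

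**Figure D4:**
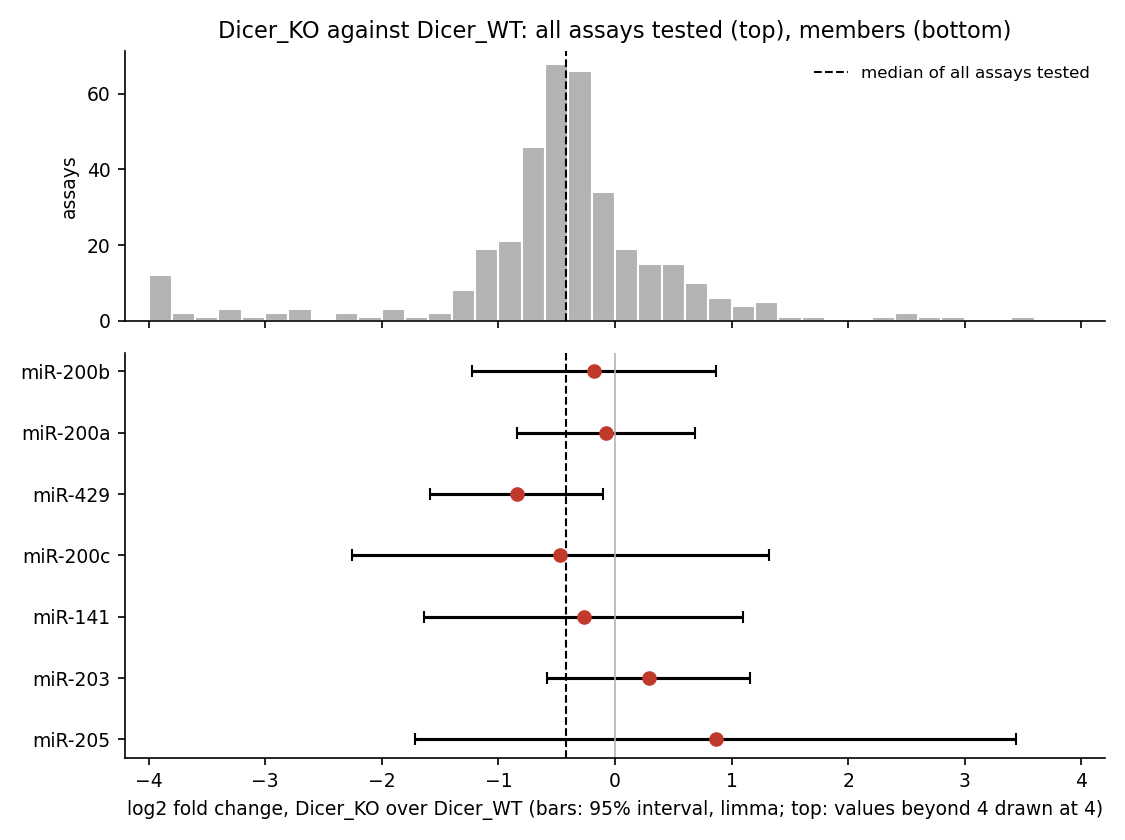
Top, log2 fold changes of all 377 assays tested (Dicer_KO over Dicer_WT), with their median of -0.42 as a dashed line. Bottom, the 7 members with 95% intervals from limma, of which only that of miR-429 (-1.58 to -0.10) leaves out 0.

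The size and often the sign of these fold changes followed the normalization. The median of all 377 assays was -0.42 with the authors' reference RNAs, -0.64 without normalization, -0.61 relative to U6, 0.16 against U87 and Y1 as control RNAs, -0.13 with mean centring and -0.01 after quantile normalization. Relative to U87 and Y1, the log2 fold change was 0.44 for miR-200a, 0.33 for miR-200b, 0.24 for miR-141 and 0.043 for miR-200c, all above 0. Against the authors' reference RNAs, U87 itself was at -0.47 and -0.42 on the 2 cards, and Y1 at -0.55 and -0.86. U6 was at 0.16 and 0.25. Fold changes relative to U87 and Y1 are therefore higher for every assay. Of the 19 alternatives, 11 (the normalizations and the omission of single aortas) moved the value of miR-429, which was below 0 in these 11, from -1.11 to -0.33, and below the median of all assays. The same 11 moved miR-203, which was above 0 in each, from 0.064 to 0.80, and above that median. Of these, no normalization, U6, U87 and Y1, and mean centring shift all members by the same amount. By construction they hardly change a member's place against the median. Of 12 alternatives that moved miR-205, 11 left it above 0, the exception being the fit without Dicer_WT replicate 3. No member was called in any of the 19 alternatives, and the smallest adjusted p was 0.108, for miR-429 among assays detected in all 6 aortas.

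**Figure D5:**
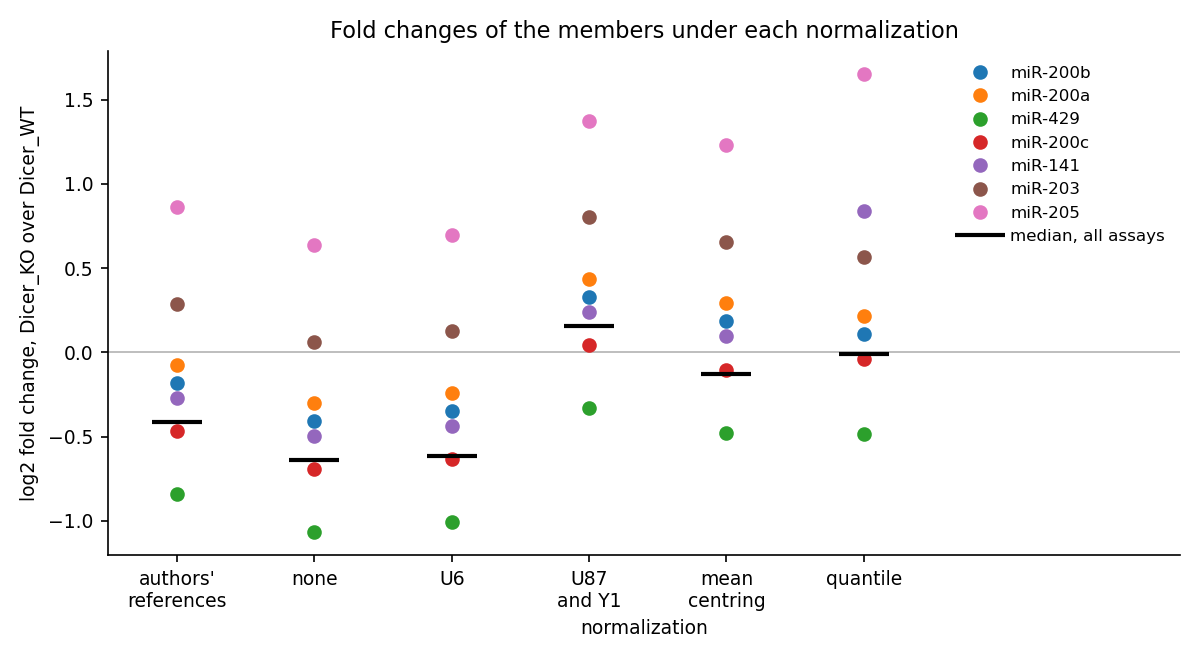
Log2 fold change (Dicer_KO over Dicer_WT) of each member under 6 normalizations, with the median of all assays as a black bar. All points shift together except under quantile normalization, and miR-429 lies lowest and miR-205 highest in each.

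Among other epithelial or endoderm-enriched microRNAs, 11 of 12 listed were on the array under the listed name and tested. Of these, 0 were called, against 1.86% of all assays tested. A log2 fold change below 0 was seen for 6 of the 11, against 78.2% of all assays, and 5 were above 0. The median of the 11 was -0.21, beside -0.42 over all assays. The highest values were those of miR-96, at 2.49 ± 1.19 (SE, limma adjusted p = 0.226, with 1 Dicer_WT well past Ct 35), and miR-182, with 1.70 ± 0.327 (adjusted p = 0.0626), which are made from 1 sensory and epithelial cluster with miR-183. miR-183 itself was at -0.21 ± 0.462 (adjusted p = 0.731). The lowest was miR-184, a microRNA of the cornea and lens, at -1.17 ± 0.472 (adjusted p = 0.181). In the marker lists of other cell types 0 assays were called, against 1.86% of all assays tested. Their median log2 fold changes were 0.64 for liver and gut (5 tested), 2.07 for endocrine and pancreas (4), -0.07 for striated muscle (5), -0.59 for smooth muscle (2) and 0.23 for endothelium (2). They were -1.83 for myeloid cells (2), 0.53 for lymphocytes (1), -0.08 for all leukocytes (2), 1.24 for erythroid cells (2), -0.43 for neurons (4) and -0.74 for mesenchyme (2). Both myeloid markers lay close to the threshold. miR-511 was at -1.99 ± 0.340 (SE, limma adjusted p = 0.0542) and miR-223 at -1.66 ± 0.346 (adjusted p = 0.0641). For the whole epithelial marker list of 10, which holds the 7 members, the summed level relative to the reference RNAs ranged from -4.74 to -4.03 in Dicer_KO and from -4.89 to -4.27 in Dicer_WT aortas.

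The patterns most like each member over the 6 aortas were sought among the 330 assays by the root mean square difference of log2 values after subtracting each assay's mean. For miR-203 the nearest were miR-126-5p (0.185), miR-764-5p (0.193) and miR-126-3p (0.258). For miR-429 they were miR-188-5p (0.179), miR-146a (0.187) and miR-340-5p (0.191), and miR-200b ranked only 75 at 0.397. miR-200b lay nearest to miR-592 (0.185), with miR-200a at rank 3 (0.267). miR-200a lay nearest to miR-130b* (0.190), with miR-200b at rank 11. For miR-200c the nearest was miR-127* (0.473), with miR-200b at rank 3 (0.517), and for miR-141 it was miR-323-3p (0.349), with miR-200b at rank 5 (0.382). For miR-205, which varied widely, the nearest was miR-449c at 0.675. The distance is not scaled to the spread of an assay, so a large one need not mean an unlike pattern. Values from the same aorta share its RNA and reference RNAs, and these distances are descriptions of 6 aortas.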

How the data were processed

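MicroRNAs were measured by TaqMan PCR in 6 aortas, after reverse transcription and preamplification, per the labels' protocols. The authors' non-normalized table gives the Ct of each assay on 2 cards (335 and 182 microRNA assays), in which 5 cells with a decimal comma were read as points. Their normalized table, also deposited, gives relative quantities as a linear ratio. Judged from the values, its log2 is the assay's Ct subtracted from the averaged Ct of U6, snoRNA135 and snoRNA202 (and, on the second card, snoRNA429) in that aorta and card, scaled to the Dicer_WT geometric mean. The third, the authors' deposited fold changes, is a linear ratio of Dicer_KO over Dicer_WT. Software, threshold, array version and run dates: not given in the sources used here. A technical batch could therefore not be tested.

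Wells at Ct 35 or above were set to Ct 35. Tested were the 377 assays that gave product below this limit in 2 or 3 aortas of either group, by limma's moderated linear model (version 3.58.1, R 4.3.3, two-sided), with Benjamini-Hochberg adjustment across the 377 and a threshold of 0.05, all 6 aortas in 1 fit without covariates. Differences within an aorta were compared by exact permutation tests (SciPy 1.17.1). The fit was also run on simulated tables without normalization. It called 69.6% of tested assays with a simulated log2 change of -1, 27.6% at -0.5 and 1.9% at 0. The simulated spread was capped below that of miR-200c and miR-205 in Dicer_WT aortas, so these shares do not apply to such members. Alternatives were other reference RNAs, no normalization, mean centring, quantile normalization, other Ct limits, filters and treatments of silent wells, a variance trend, a replicate block and leaving out each aorta. The number of arrays limits the precision. Named were all members, their star strands, fixed lists of other epithelial microRNAs and cell type markers, the control RNAs, and the 3 assays nearest to each member. The members and lists were chosen with earlier results of these data known. Same-numbered aortas were not treated as pairs in the main fit. Their deviations from the group means correlated at -0.084, -0.097 and 0.043, within the -0.132 to 0.177 of differently numbered aortas. With 3 aortas per group, these values cannot show whether a pairing existed. Sequences came from RefSeq, which held all 7 members.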

Additional observations from a re-analysis of the deposited data

How the results depend on the processing

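No member was called under any of the 19 alternatives (adjusted p from 0.108 to 0.981), and of 78 member values that an alternative moved 17 had the other sign. The other alternatives, such as a filter or the trend, leave a member's fold as it is by construction. With mean centring, miR-200a was at 0.29, miR-200b at 0.19 and miR-141 at 0.096. After quantile normalization these were at 0.22, 0.11 and 0.84. Relative to U87 and Y1, miR-200a was at 0.44, miR-200b at 0.33, miR-141 at 0.24 and miR-200c at 0.043, and the members' median was 0.33. Leaving out 1 aorta gave ranges of -0.29 to 0.15 for miR-200a, -0.53 to 0.062 for miR-200b, -0.88 to 0.12 for miR-141, -1.24 to 0.091 for miR-200c and -0.22 to 1.73 for miR-205. The members' median then ranged from -0.48 to 0.12, and its distance from the median of all assays from -0.059 to 0.64. Within an aorta, the group difference ranged from -0.094 to 0.25 for miR-200a minus miR-200b, -0.18 to 0.83 for miR-141 minus miR-200c, -1.20 to 0.44 for miR-203 minus miR-205, -0.71 to 0.029 for miR-200c minus miR-200b, -0.096 to 0.45 for miR-200a minus its star strand and -0.53 to 0.98 for miR-200c minus its own. The other 3 kept their sign. miR-429 minus miR-200b ranged from -0.79 to -0.45 and miR-141 minus its star strand from -1.37 to -0.21. miR-200b minus its star strand ranged from -5.06 to -2.70, and was -1.12 with undetected wells missing. For miR-200c minus its star strand, 5 star wells were set to the detection limit. Its range therefore mainly sets miR-200c against a fixed Ct and does not compare 2 measured strands.

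Calls over all assays were 7 lower and 0 higher. They were 24 and 2 at a Ct cutoff of 32, 16 and 1 with undetected wells missing, 13 lower with Ct 40 taken as measured, and 20 and 2 among assays detected in all 6 aortas, for which the cause was not tested. Higher calls were 1 with mean centring and 2 each relative to U87 and Y1 and after quantile normalization. Leaving out 1 aorta gave 5 to 55 lower and 0 to 9 higher, with 55 and 9 without Dicer_KO replicate 1. With the replicate block, 7 were lower and 0 higher, and miR-429 had the same -0.84 with an adjusted p of 0.143, so the block changed no call of a member. At Ct 35 no well of a member was set to the limit, only wells of star strands. At a cutoff of 32, Dicer_WT replicate 3 of miR-205 was, and its log2 fold change was 0.54.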
